A study of Mus musculus with 6 samples.

Results

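The genes described here make purine nucleotides, and they were followed in day 3 embryoid bodies of mouse embryonic stem cells in which the Wnt pathway factor Lef1 was induced. The list of 10 genes holds the salvage enzymes Hprt and Aprt, the enzymes Ppat, Gart, Paics, Adsl and Atic of new synthesis, and Gmps, Impdh1 and Impdh2, which turn inosine monophosphate (IMP) into guanosine monophosphate (GMP). The list was drawn up with the change of Hprt in these data already known, and its rows were found by gene symbol among the 36699 rows of the authors' deposited table. Of the 10 genes, 9 had a row and all 9 were among the 18114 rows tested by the authors, and Aprt was not analysed here. Salvage is therefore represented by Hprt alone, against 5 enzymes of IMP synthesis and 3 of the step to GMP.

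RNA was captured on oligo-dT beads from 6 libraries of A2Lox.cre cells carrying inducible Flag-Lef1. The plus_Dox group (libraries 1, 2 and 3) had received doxycycline for 24 h before harvest on day 3, and the minus_Dox group (libraries 1, 3 and 4) had received none. Both groups were of 1 cell line with the same transgene. Doxycycline and induced Lef1 came together in plus_Dox, so their effects cannot be told apart. A2Lox.cre is a line built so that a doxycycline-inducible transgene can be placed next to Hprt on the X chromosome. In the authors' deposited table Lef1 stood at 51.0 FPKM in plus_Dox and 7.56 FPKM in minus_Dox (FPKM, sequenced fragments scaled to transcript length and library size). Whether the libraries are separate cultures is not stated in the labels, so the spread behind the authors' test may be technical. The table gives 1 FPKM value for each gene and group, so the values of single libraries, their depth and any overlap between the groups were not seen. A standard error (SE) or 95% interval given with a fold was derived from the test statistic that the authors deposited. In these mixed aggregates fewer cells that express a gene and less RNA per cell cannot be told apart.

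Cells obtain purines in 2 ways. New synthesis builds the purine ring in steps on phosphoribosyl pyrophosphate (PRPP) until IMP is reached, from which the adenine and guanine nucleotides branch. Salvage joins a ready-made base to PRPP: Hprt does this for hypoxanthine and guanine, and Aprt for adenine. Loss of HPRT in people causes Lesch-Nyhan disease, and because cells with and without the enzyme can be selected by drugs, the Hprt locus is a common site for inserting transgenes in mouse embryonic stem cells.

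Hprt was high in plus_Dox and low in minus_Dox, while none of the 8 synthesis genes differed by more than 1.71-fold. In the authors' deposited table Hprt stood at 40.4 FPKM in plus_Dox and 2.82 FPKM in minus_Dox. The difference was 14.3-fold, and its 95% interval runs between 11.1 and 18.5 (3.84 on the log2 scale, SE 0.19). Among all tested rows, the level of Hprt lay at percentile 86.8 in plus_Dox and at percentile 47.2 in minus_Dox. Its fold was the 6th largest of 8486 tested rows that reached 5 FPKM in either group. The fold of Hprt was what led to the list, so it is given as a description. The row covers chrX:50341313-50374836 in mm9 (build per the submitters' processing notes).

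The start of Hprt is shown here beside that of Gmps. Gmps was chosen because its transcript has nearly the same share of G and C bases (40.1% for Hprt and 39.0% for Gmps). The transcripts differ in length, 1289 nt for Hprt and 8105 nt for Gmps, so the match is in base composition alone. The log2 folds of Hprt and Gmps were 3.84 and -0.30 in the authors' deposited table. Each sequence is the 250 bases before the start site in RefSeq (build GRCm38.p6), chrX:52987828-52988077 on the plus strand for Hprt and chr3:63975893-63976142 on the plus strand for Gmps. Capitals mark GGGCGG or its complement, the GC box bound by Sp family factors.
Hprt: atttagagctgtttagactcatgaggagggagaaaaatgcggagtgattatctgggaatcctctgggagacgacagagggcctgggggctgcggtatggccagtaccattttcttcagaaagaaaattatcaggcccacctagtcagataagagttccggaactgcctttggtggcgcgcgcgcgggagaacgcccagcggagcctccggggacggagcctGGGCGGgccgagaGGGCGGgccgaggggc
Gmps: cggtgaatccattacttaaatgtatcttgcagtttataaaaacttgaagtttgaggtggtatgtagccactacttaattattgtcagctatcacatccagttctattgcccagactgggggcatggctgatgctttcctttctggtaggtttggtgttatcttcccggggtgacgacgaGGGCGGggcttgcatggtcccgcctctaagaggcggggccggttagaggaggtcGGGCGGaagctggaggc
Both windows hold 2 GC boxes. The letters occurred in the windows of all 10 listed genes (11 windows, since Impdh1 has 2 start sites), against 32.7% of 32817 promoter windows of the same length, both strands searched. CACGTG, the E-box bound by Myc and Max, occurred in 3 of the 11 windows (Paics, Atic and Impdh2), against 6.02% of all windows. CTTTGAT, the core letters bound by Tcf and Lef factors, occurred in 0 of the 11 and in 3.21% of all windows. TATAAA, the TATA box, occurred in 1 of the 11, that of Gmps (2 overlapping matches, not capitalised), and in 12.4% of all windows. CCAAT, the CCAAT box, occurred in 3 of the 11, neither Hprt nor Gmps among them, and in 33.8% of all windows. GC content of the 11 windows ran from 51.2% to 69.6%, with a median of 52.4% over all promoters. The GC box, E-box and Tcf/Lef letters did not overlap each other in the printed windows. A match of letters is a description of the reference sequence only. The sequence beside Hprt in the A2Lox.cre cells used here was not seen and may differ from the reference.

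**Figure D1:**
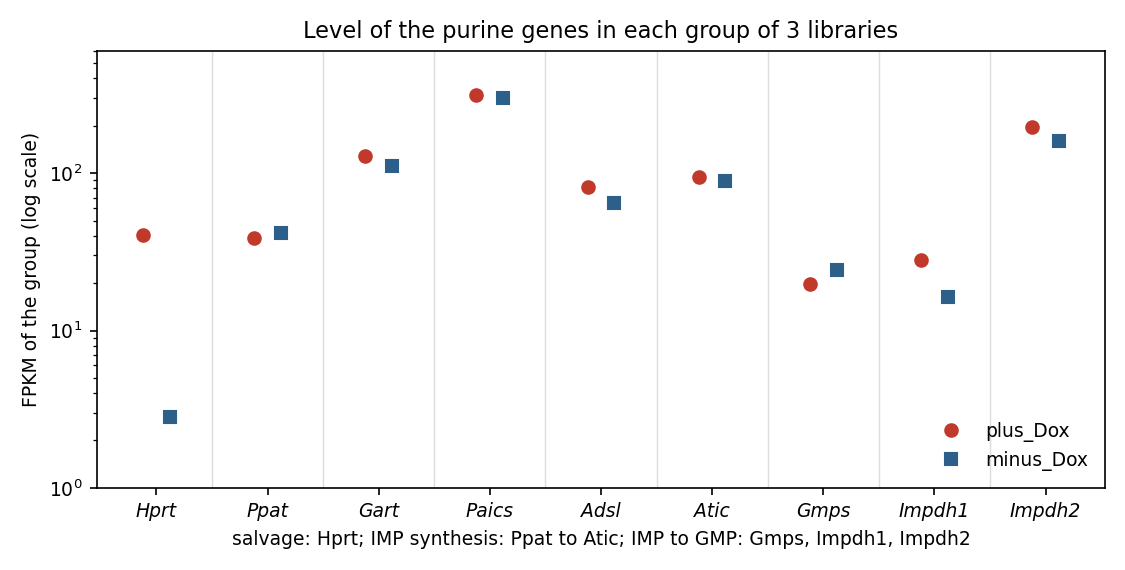
FPKM of the 9 purine genes on a log axis, with 1 point for each group of 3 libraries in the authors' deposited table and no error bars, since single libraries are not given. Hprt stood at 40.4 FPKM in plus_Dox and 2.82 FPKM in minus_Dox, while the 2 points of each of the other 8 genes lie close together.

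The 5 enzymes of IMP synthesis showed no call in either direction. Among all tested rows 12.2% were called, so nothing is read from this count of 0. Ppat, which commits PRPP to the route, stood at 38.6 FPKM in plus_Dox and 41.7 FPKM in minus_Dox in the authors' deposited table (0.93-fold, interval 0.55 to 1.57). Gart, a protein with several activities of the early steps, stood at 128 FPKM in plus_Dox and 111 FPKM in minus_Dox in the authors' deposited table (1.16-fold, interval 0.90 to 1.49). Paics, which carries a pair of middle steps, had the highest level of the list, 315 FPKM in plus_Dox and 302 FPKM in minus_Dox in the authors' deposited table (1.04-fold, interval 0.72 to 1.52). The levels of these first 3 enzymes thus lay far apart from each other within a group and close together between groups. Adsl, a lyase used on the way to IMP and again on the way to AMP, stood at 82.3 FPKM in plus_Dox and 64.2 FPKM in minus_Dox in the authors' deposited table (1.28-fold, interval 0.96 to 1.71). Atic, which completes IMP, stood at 94.3 FPKM in plus_Dox and 88.8 FPKM in minus_Dox in the authors' deposited table (1.06-fold, interval 0.85 to 1.33). Each of the 5 intervals includes 1, and the highest upper bound, that of Adsl, leaves room for a 1.71-fold rise. Their summed level was 659 FPKM in plus_Dox and 608 FPKM in minus_Dox, a difference of 8.35%.

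Ppat and Paics lie head to head. In RefSeq (GRCm38.p6) the start site of Ppat, on the minus strand, is 276 bases past that of Paics, on the plus strand, so the transcribed regions overlap at their starts. The authors' deposited table gives both the same span, chr5:77342273-77396534 in mm9, and no strand setting is stated in the labels. Reads from the overlap therefore cannot be assigned with certainty. The implied SE of their log2 folds (0.39 for Ppat and 0.28 for Paics) were the largest of the 5 listed IMP synthesis genes. Impdh1, at another locus, also had an SE of 0.28. Whether the overlap bears on the SE was not tested. The ratio of Ppat to Paics in FPKM was 0.12 in plus_Dox and 0.14 in minus_Dox. Pfas, the remaining enzyme of IMP synthesis, is not on the list and was added after values had been seen. The authors' deposited table gives Pfas at 24.9 FPKM in plus_Dox and 27.7 FPKM in minus_Dox, with a log2 fold of -0.15 and an SE of 2.04, too wide to place it.

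The 3 enzymes of the step to GMP held no call either, where 12.2% of all tested rows were called. Nothing is read from this count of 0, and the values of the 3 genes pointed in both directions. Impdh2, the main isoform of IMP dehydrogenase in dividing cells, stood at 195 FPKM in plus_Dox and 161 FPKM in minus_Dox in the authors' deposited table (1.22-fold, interval 0.98 to 1.51). Its paralogue Impdh1 stood at 27.9 FPKM in plus_Dox and 16.3 FPKM in minus_Dox in the authors' deposited table (1.71-fold, interval 1.16 to 2.51, q = 0.052). Gmps, which makes GMP from the product of IMP dehydrogenase, stood at 19.7 FPKM in plus_Dox and 24.3 FPKM in minus_Dox in the authors' deposited table (0.81-fold, interval 0.62 to 1.05). Impdh1 thus had the largest difference of the 8 synthesis genes and an interval that excludes 1 before adjustment, yet its q-value missed 0.05. It would pass at 0.1, as 16.3% of all tested rows do. Impdh2 exceeded Impdh1 in FPKM 7.01-fold in plus_Dox and 9.83-fold in minus_Dox.

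Of the 9 tested members, 1 (Hprt) passed at q below 0.05 by the authors' deposited table and 8 did not. Among all tested rows 12.2% passed, 8.98% higher and 3.22% lower in plus_Dox. Since the contrast was known when the list was made, nothing is read from this count. The 8 synthesis genes had a median log2 fold of 0.15, with 6 higher and 2 lower in plus_Dox. The median of 12240 tested rows with at least 1 FPKM was 0.20, and relative to it 4 of the 8 were above and 4 below. After this median was subtracted 1 of the 9 members passed, again Hprt, against 9.56% of all rows. Hprt exceeded the highest of the 8, Impdh1, by 3.07 in log2 fold and their median by 3.69. In level, Paics, Impdh2, Gart, Atic and Adsl led in both groups, in that order. Hprt ranked 6 of 9 in plus_Dox and 9 of 9 in minus_Dox, so that Paics exceeded Hprt in FPKM 7.79-fold in plus_Dox and 107-fold in minus_Dox. The spread of a level between libraries is not in the table, so neighbours in this order, such as Hprt and Ppat in plus_Dox, were not separated by a test.

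**Figure D2:**
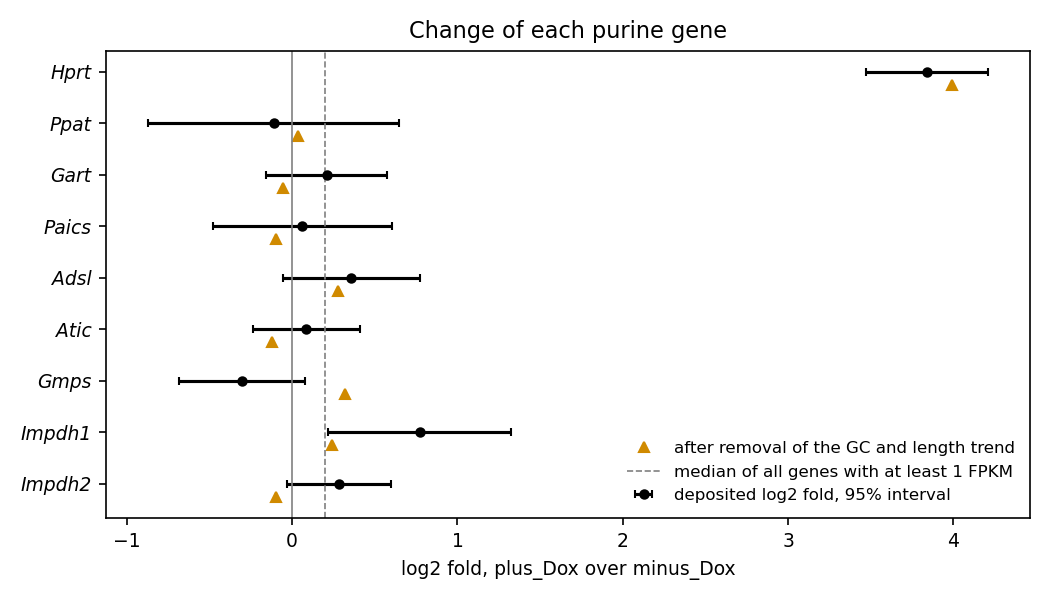
Log2 fold of plus_Dox over minus_Dox for the 9 purine genes (circles, with the 95% interval implied by the authors' statistic) and the same after removal of the trend on GC content and transcript length (triangles). Hprt lies at 3.84 and 3.99, the synthesis genes lie between -0.30 and 0.77 and, after trend removal, between -0.12 and 0.32, and the dashed line marks the median of all genes at 0.20.

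Folds across the whole table followed the base composition of the transcripts, with a Spearman coefficient of 0.65 for GC content and -0.47 for length over 11596 genes of the same libraries, given without a test because genes are not independent. The synthesis genes lay along this trend. Gmps, with the lowest GC content among the members (39.0%) and the longest transcript (8105 nt), had the lowest log2 fold, -0.30, where the trend alone gave -0.62. Impdh1, with the highest GC content (58.9%), had the highest of the 8, 0.77, where the trend gave 0.53. After the trend was removed Gmps stood at 0.32 and Impdh1 at 0.24, and the 8 genes had a median of -0.01. Hprt, with a GC content of 40.1% and a transcript of 1289 nt, had a trend value of -0.15 and stood at 3.99 after removal. In that fit 1 of the 9 members passed (Hprt, higher in plus_Dox), against 2.2% of 16658 rows. What produced the trend was not tested.

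**Figure D3:**
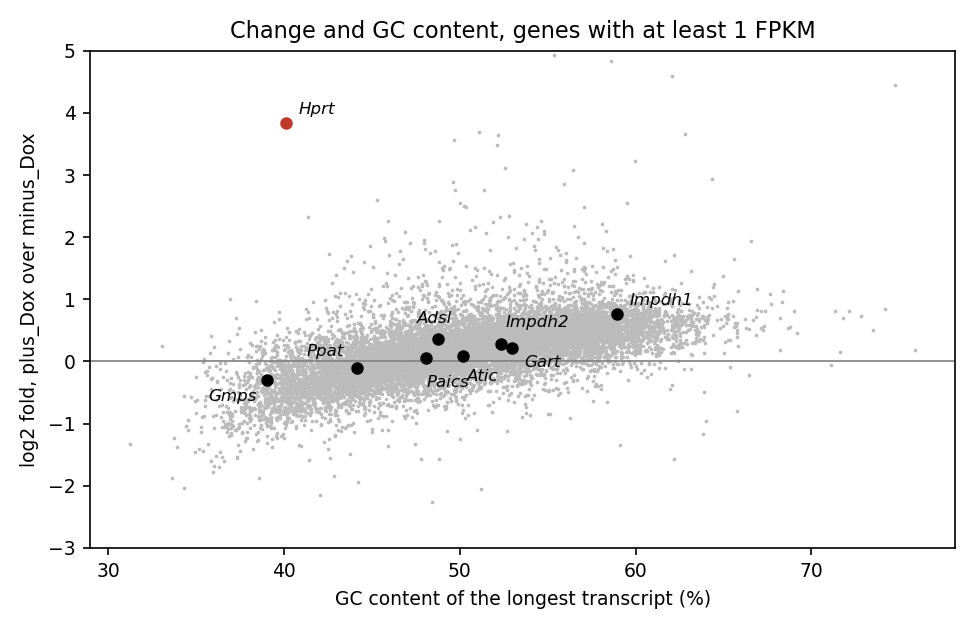
Log2 fold of plus_Dox over minus_Dox against GC content of the longest transcript for 11596 genes that reached 1 FPKM in either group (grey; 3 lie outside the plotted range), with the 9 purine genes labelled. The synthesis genes run along the cloud from Gmps at 39.0% to Impdh1 at 58.9%, and Hprt lies far above genes of its GC content.

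Around Hprt, 16 other tested genes with at least 1 FPKM lay within 1 Mb, 7 before it and 9 after it along the chromosome. Of these, 5 were called higher and 2 lower in the authors' deposited table, and 16.7% of all tested rows with at least 1 FPKM were called. The nearest of the set before Hprt, at a gap of 31.2 kb, was Phf6, which encodes a zinc finger protein of the nucleus, and it was lower in plus_Dox (10.0 FPKM in plus_Dox and 18.9 FPKM in minus_Dox, log2 fold -0.92, SE 0.17, authors' deposited table). Beyond it came the pseudogene Rps2-ps13 at 88.7 kb (log2 fold 1.82, SE 0.38, called higher) and Ccdc160 at 189 kb (log2 fold -0.62, SE 0.24, not called) in the authors' deposited table. The nearest of the set after Hprt were Fam122b at 222 kb (log2 fold -0.95, SE 0.24, called lower), Mospd1 at 323 kb (-0.57, SE 0.21, not called) and Gm14584 at 397 kb (-0.47, SE 0.39, not called) in the authors' deposited table. Of these 6 genes, the nearest 3 on each side, 5 had log2 folds below 0, 2 of them called, and Rps2-ps13 was the exception. Over all tested rows, those under 1 FPKM included, 3.22% were called lower. The median log2 fold was 0.04 over the 16 genes and 0.20 over all tested rows with at least 1 FPKM. The share of all rows below 0 was not worked out. Gm14586, before Hprt at 215 kb, lay nearer than Fam122b and was called higher. The other calls, all higher in plus_Dox, were Gm14586, Cxx1c, Cxx1b and Zfp36l3, with log2 folds of 0.88, 2.21, 0.90 and 0.89 in the authors' deposited table. Reads of the pseudogene and of the similar Cxx1 copies can be shared with other loci, so these values are uncertain. After trend removal none of the 16 passed, where 2.2% of all rows did. The highest log2 fold among the 16 was 2.21, against 3.84 for Hprt. Any part of the inserted transgene in these values was not tested.

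**Figure D4:**
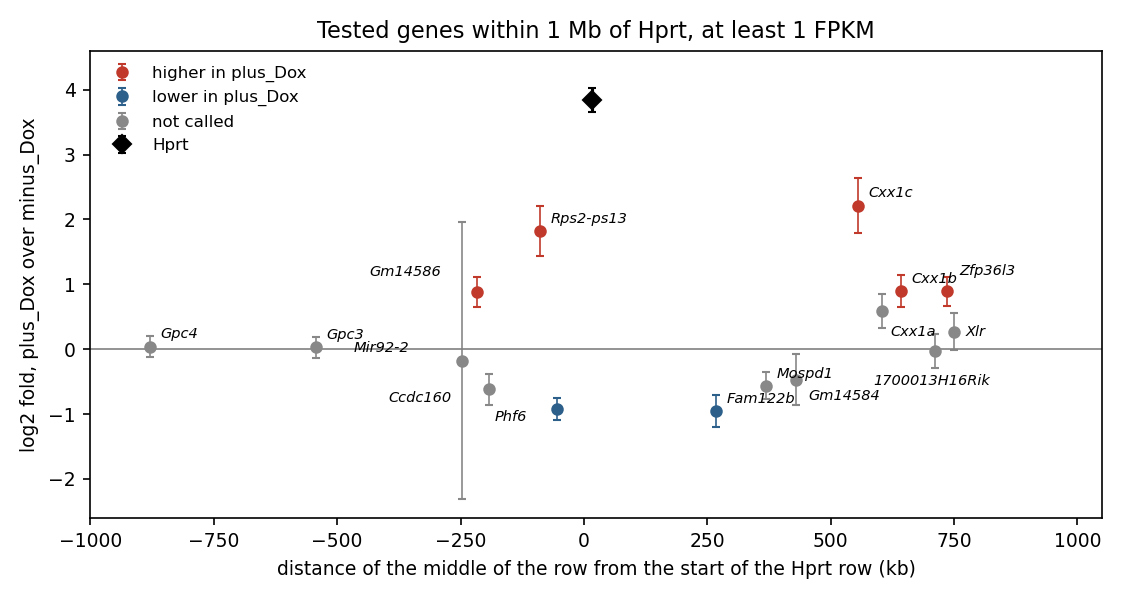
Log2 fold of plus_Dox over minus_Dox (points, with bars of 1 implied SE) against distance in kb from the start of the Hprt row, for the 16 tested genes within 1 Mb with at least 1 FPKM and for Hprt. Hprt stands at 3.84. Phf6, the nearest of these genes before it, and Fam122b, the nearest after it, stand at -0.92 and -0.95. Also nearer than Fam122b are Rps2-ps13 at 1.82, Ccdc160 at -0.62 and Gm14586 at 0.88.

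The rest of nucleotide metabolism was followed in 9 lists of enzymes and transporters, with 77 tested rows. Of these, 13 were called higher, 2 lower and 62 neither in the authors' deposited table, or 19.5% called, where 12.2% of all tested rows were called (8.98% higher and 3.22% lower). All 15 calls were in rows with at least 1 FPKM, and 16.7% of all tested rows at that level were called. The median log2 fold of the 77 rows was 0.33, with 0.20 over all genes with at least 1 FPKM. After the median of all genes was subtracted 7 passed, 4 higher and 3 lower, where 9.56% of all rows did. When the trend on GC content and length was removed, 3 of the 15 calls were left (Nt5e and Cda higher, Uprt lower), where 2.2% of all rows passed.

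PRPP synthesis, the step from IMP towards AMP, and ribonucleotide reductase held no call in 8 tested rows. These lists are small, and 12.2% of all tested rows passed, so nothing is read from these counts of 0. Of 3 tested genes for PRPP synthesis, 0 passed. Prps1, a PRPP synthetase, stood at 50.2 FPKM in plus_Dox and 49.1 FPKM in minus_Dox in the authors' deposited table (a log2 fold of 0.03 with SE 0.16), and Prpsap1, a protein associated with it, was not tested. Of 2 genes for the step towards AMP, 0 passed: Adss stood at 56.5 FPKM in plus_Dox and 61.2 FPKM in minus_Dox, and its paralogue Adssl1 at 4.36 FPKM in plus_Dox and 3.42 FPKM in minus_Dox in the authors' deposited table. The 3 subunit genes of ribonucleotide reductase, which makes deoxynucleotides, also held 0 calls, with Rrm1 at 61.5 FPKM in plus_Dox and 60.6 FPKM in minus_Dox and Rrm2 at 72.0 FPKM in plus_Dox and 80.3 FPKM in minus_Dox in the authors' deposited table.

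Purine breakdown and transport held calls in 1 direction. Of 7 tested breakdown genes 2 rose, where 8.98% of all tested rows were called higher: Nt5e, the cell surface enzyme CD73 that releases adenosine from AMP, stood at 1.57 FPKM in plus_Dox and 0.42 FPKM in minus_Dox (3.77-fold, log2 SE 0.24, q = 2.2e-12, authors' deposited table), and its log2 fold after trend removal was 1.88. Nt5c, a cytosolic nucleotidase, stood at 97.3 FPKM in plus_Dox and 60.1 FPKM in minus_Dox in the authors' deposited table (1.62-fold, q = 0.0086), and at a log2 fold of -0.04 after trend removal. Of 7 nucleoside transporter genes 2 rose, Slc29a1 (42.5 FPKM in plus_Dox and 19.5 FPKM in minus_Dox, 2.18-fold, q = 0.0048) and Slc29a2 (10.4 FPKM in plus_Dox and 6.59 FPKM in minus_Dox, 1.57-fold, q = 0.0055) in the authors' deposited table. Trend removal left log2 folds of 0.65 and 0.14, and neither passed. Of 17 kinase and interconversion rows 2 rose, Guk1, the guanylate kinase (140 FPKM in plus_Dox and 90.0 FPKM in minus_Dox, q = 0.0085), and a joined row of Nme1, Nme2 and Gm20390 (1705 FPKM in plus_Dox and 1121 FPKM in minus_Dox, q = 0.049) in the authors' deposited table. Over all tested rows 8.98% were called higher. After median subtraction 0 rows of this list were higher and 1, Dck, was lower, where 9.56% of all rows passed. Guk1 stood at -0.03 after trend removal, and the joined row has no value there.

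Genes listed as other phosphoribosyltransferases, enzymes that like Hprt join a base or its relative to PRPP, were called in both directions. Whether the Uprt product has this activity was not tested. Of 5 tested, the authors' deposited table calls 1 higher and 2 lower, where 8.98% of all tested rows were called higher and 3.22% lower. Uprt, a homologue of microbial uracil phosphoribosyltransferase and like Hprt on the X chromosome, fell to 0.68 FPKM in plus_Dox, against 1.39 FPKM in minus_Dox (log2 fold -1.02, SE 0.28, q = 0.0053, authors' deposited table), and after trend removal its value was -0.997. Nampt, which starts the salvage of nicotinamide into NAD, fell to 39.4 FPKM in plus_Dox, against 55.5 FPKM in minus_Dox (log2 fold -0.49, SE 0.16, q = 0.026, authors' deposited table), and stood at -0.08 after trend removal. Naprt1, which does the same for nicotinic acid, rose (6.04 FPKM in plus_Dox and 3.88 FPKM in minus_Dox, log2 fold 0.64, q = 0.020, authors' deposited table) and stood at 0.04 after trend removal.

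The folate enzymes supply carbon units to Gart and Atic. Of 16 tested, 3 rose and 13 did not pass, where 8.98% of all tested rows were called higher: Aldh1l1 (7.60 FPKM in plus_Dox and 4.14 FPKM in minus_Dox, q = 0.0018), Fpgs (40.3 FPKM in plus_Dox and 24.2 FPKM in minus_Dox, q = 0.023) and the mitochondrial serine enzyme Shmt2 (41.0 FPKM in plus_Dox and 28.4 FPKM in minus_Dox, q = 0.015) in the authors' deposited table. Their log2 folds after trend removal were 0.60, 0.18 and 0.00, and none passed. Pyrimidine synthesis and salvage held 3 rises in 18 tested rows, against the same 8.98% of all rows. Cda, the cytidine deaminase of pyrimidine salvage, stood at 10.6 FPKM in plus_Dox and 2.82 FPKM in minus_Dox (3.77-fold, log2 SE 0.24, q = 2.4e-13, authors' deposited table), and its log2 fold after trend removal was 1.19 and still passed. Tk1, the thymidine kinase of dividing cells, and Uck2, a uridine and cytidine kinase, stood at 1.60-fold (q = 0.028) and 1.36-fold (q = 0.047) in the authors' deposited table, and neither passed after trend removal. A second, short row of Uck2 stood at 622 FPKM in plus_Dox and 900.2 FPKM in minus_Dox and was not called in the authors' deposited table, with a log2 fold of -0.53 and an SE of 0.58.

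**Figure D5:**
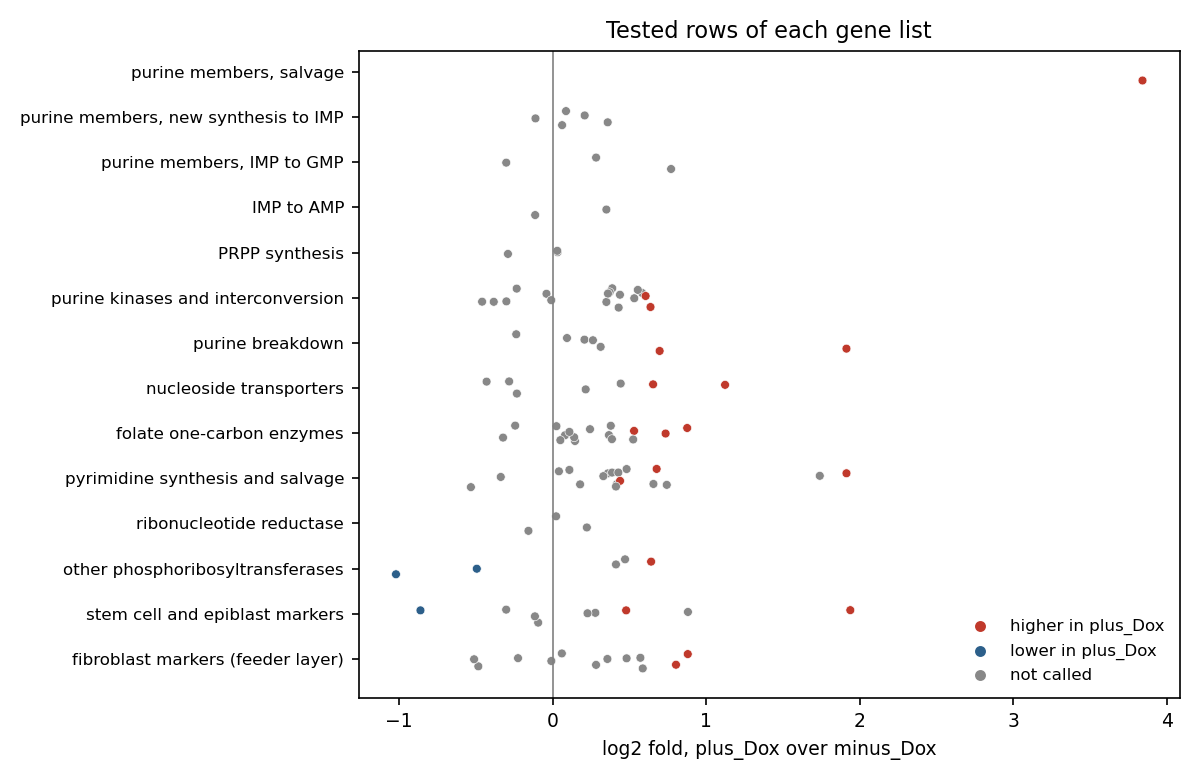
Log2 fold of plus_Dox over minus_Dox for every tested row with a finite fold in each gene list described here, with rows called at a q-value of 0.05 coloured by direction and a small vertical scatter for visibility. Hprt, at 3.84, lies to the right of every other row drawn, and the synthesis genes hold no coloured point.

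By the log2 fold of this contrast, the single genes with at least 5 FPKM nearest to Hprt were Fgf8 (3.67, SE 0.23), a growth factor of the primitive streak, Dynlt1e (3.57, SE 0.29), which encodes a dynein light chain and has near-identical copies, and the microRNA gene Mir1199 (4.45, SE 2.86, q = 0.37) in the authors' deposited table. This likeness rests on 1 difference between 2 groups.

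The labels name embryonic stem cells, and 10 markers of stem cells and epiblast were read. Of 9 tested, 2 rose and 1 fell, where 8.98% of all tested rows were called higher and 3.22% lower. After median subtraction 1 was higher and 2 lower, where 9.56% of all rows passed. After trend removal 1 was higher and 1 lower, where 2.2% of all rows passed. The rises were in Nanog (110 FPKM in plus_Dox and 28.6 FPKM in minus_Dox) and Utf1 (362 FPKM in plus_Dox and 260.0 FPKM in minus_Dox), and the fall was in Sox2 (30.9 FPKM in plus_Dox and 56.2 FPKM in minus_Dox) in the authors' deposited table. Pou5f1, the defining factor, stood at 1510 FPKM in plus_Dox and 820 FPKM in minus_Dox and was not called (q = 0.055, authors' deposited table). Because the cells had been grown on fibroblasts, which were stripped away before embryoid body culture, 13 fibroblast markers were read as well. Of the 12 tested, 2 rose (Vim and Twist1) and 0 fell, where 8.98% of all tested rows were called higher and 3.22% lower. After median subtraction 0 were higher and 1 lower (Pdgfra), where 9.56% of all rows passed. None passed after trend removal, where 2.2% of all rows did. By sign, 8 of the 12 log2 folds were above 0 and 4 below. The 12 summed to 104 FPKM in plus_Dox and 63.4 FPKM in minus_Dox, with Vim alone at 76.4 FPKM in plus_Dox and 41.5 FPKM in minus_Dox in the authors' deposited table. Thy1 followed at 16.6 FPKM in plus_Dox and 11.9 FPKM in minus_Dox, and the other 10 tested markers were each under 3 FPKM in both groups. Among these, Col1a1 stood at 1.32 FPKM in plus_Dox and 0.89 FPKM in minus_Dox, and Dcn at 1.52 FPKM in plus_Dox and 2.12 FPKM in minus_Dox in the authors' deposited table. Lum, which was not tested, was listed at 0.013 FPKM in plus_Dox and 0.027 FPKM in minus_Dox. The part of such cells in the level of Hprt was not tested.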

How the data were processed

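Polyadenylated RNA of 3 plus_Dox and 3 minus_Dox libraries was sequenced, grouped by sample title. Build mm9, Cuffdiff, Cufflinks 2.0.2, TopHat2 2.0.8, Picard and Bowtie appear in the submitters' processing notes, with no role for each. The annotation used for counting is not given in these sources. Per the file headers, the deposited table holds for each row 1 FPKM value per group, computed by the authors over 3 libraries, a log2 fold of plus_Dox over minus_Dox, a test statistic (a score without a fixed range), a p-value and a q-value. It has 0 columns of single libraries, so the authors' own test was used in place of a fitted model, with calls at q below 0.05, and library depth is unknown. The p-value was checked to be the normal tail of the statistic, whose sign is opposite to the fold, and the q-value its Benjamini-Hochberg adjustment over tested rows. The SE is the fold divided by the statistic. Rows marked too high in depth (98) can list 0 FPKM for abundant genes, which was not read as absence.

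The members and lists were chosen with earlier results of these data known. Named are all members, every call of a list the text describes (without a call, its 2 highest members), 3 neighbours of Hprt on each side with all calls near it, and the 3 genes nearest in fold. Alternatives were q below 0.01 and 0.1, at least 2-fold, at least 1 and 5 FPKM, pseudocounts of 1 and 0.1, subtraction of the median log2 fold, and removal of a trend fitted by least squares on cubic splines with 6 knots of GC content and log2 length (scikit-learn 1.9.0, scipy 1.17.1). These came from the longest basic GENCODE vM21 transcript of each symbol (GRCm38, for properties only), known for 92.5% of tested rows and all 9 members. The trend removal was tested on simulated data. Promoter sequences are from RefSeq. A list of reference genes for quantitative PCR is not reported here.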

Additional observations from a re-analysis of the deposited data

How the results depend on the processing

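The log2 fold of Hprt ran from 3.44 to 3.99 over the 9 alternatives, and Hprt passed under the 7 that give a call. Thresholds on q, fold or FPKM leave a fold as it is, and a pseudocount cannot reverse it. Its direction could turn only under median subtraction (3.64) and trend removal (3.99), and it did not. Hprt was chosen for its fold, so this is a description. The 2 pseudocount scales have no test. Calls among the members numbered 2 at q below 0.1, with Impdh1 added at 0.77, where 16.3% of all tested rows passed. They numbered 1 under the others. The gap of 3.69 between Hprt and the median of the 8 synthesis genes was 4.0 after trend removal and 3.29 on the log2(FPKM + 1) scale. Trend removal turned the small folds of Ppat (0.034), Gart (-0.053), Paics (-0.099), Atic (-0.12), Gmps (0.32) and Impdh2 (-0.097), and median subtraction turned Paics (-0.14) and Atic (-0.11). None of these was called in any setting. Calls in the 9 lists of nucleotide metabolism, 15 in the main setting, numbered 8 at q below 0.01 and 4 at 2-fold or more. They numbered 7 after median subtraction (4 higher, 3 lower) and 3 after trend removal. Of all rows, 12.2% passed in the main setting, 9.56% after median subtraction and 2.2% after trend removal. The shares at q below 0.01 and at 2-fold were not worked out, so nothing is read from those counts. Calls near Hprt, 7 of 16, numbered 4 of 9 within 0.5 Mb and 2 of 6 with at least 5 FPKM. Of all tested rows with at least 1 FPKM, 16.7% were called, and the share at 5 FPKM was not worked out. In alternatives chosen after seeing the data, calls near Hprt numbered 9 of 16 after median subtraction, against 9.56% of all rows. After trend removal they numbered 0 of 16, against 2.2% of all rows. The causes of these shifts were not tested. No paired analysis was possible because the table has no columns of single libraries, and for the same reason leaving out a replicate was not run. Without depth or library values, a change in a synthesis gene smaller than its interval was not detectable.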
